A study of Spodoptera frugiperda with 3 samples.

Results

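A set of 81 protein-coding genes was abundant in Verson's glands of L6 larvae and of pupae of the fall armyworm, Spodoptera frugiperda, and at least 5 times lower in the glands of prepupae. The set came from 18798 protein-coding genes outside the mitochondrial sequence, among 20644 genes in the tables. Its members were chosen on a level called R, which is the deposited TPM, reads per transcript length scaled to a fixed sum, after removal of rRNA and mitochondrial genes, rescaled to 1000000 in each library. A member had R of 20 or more in both L6 and pupa, R + 1 at least 5 times that of the prepupa in both, and R + 1 in L6 and pupa within 3-fold of each other. The dip in the prepupa and the balance of L6 and pupa were therefore fixed by the choice and are described here without a test.

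The glands were dissected from FAW-SID1, a transgenic strain in which hr5-IE1 drives GFP and the IE1 promoter drives SID1, an RNA uptake channel of the worm Caenorhabditis elegans. IE1 is a baculovirus promoter that is active in most insect tissues, and all 3 groups carried both transgenes. The 3 groups were L6, the last larval instar, the prepupa, and the pupa, with 1 library each, and the number of animals behind a library and the hour within each stage are not stated. No difference between stages has a replicate check, no p-value was computed, and all intervals cover counting error only.

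Verson's glands are dermal glands of caterpillars that sit beneath the epidermis, built of a large secretory cell with saccule and duct cells. They fill with secretion between molts, empty at the molt, and degenerate around pupation. At the change from larva to pupa, the level of juvenile hormone changes and ecdysteroids drive a new cuticle, so that gland, epidermis, fat body and hemolymph proteins all change in these days.

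The libraries differed in how much of them was usable. Reads on exons numbered 21366500 in L6, 15208331 in prepupal and 18620715 in pupal glands, but rRNA and mitochondrial genes took 72.5% of TPM in L6, 0.289% in prepupal and 18.3% in pupal glands. Reads outside those genes were 2610753, 15161624 and 11716156 in L6, prepupa and pupa. A member had between 35 and 1906 exon reads in L6. The median was 231 there, below 1093 in the pupa and above 37 in the prepupa. The prepupa, where the members were low, had the most reads outside rRNA and mitochondrial genes. Of the 81, 68 had 10 or more exon reads there. With rRNA and mitochondrial genes left in, as in the deposited TPM, the same limits gave 35 genes, 16 of them among the 81. For the 81 genes, stage and the make-up of the libraries cannot be told apart.

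The median member had R of 77.7 in L6, 3.59 in prepupal and 81.9 in pupal glands. The middle of the set ran between 45.0 and 198 in L6, between 1.58 and 8.12 in the prepupa, and between 45.4 and 166 in the pupa, as quartiles. Summed over the set, R was 16329 in L6, 894 in prepupal and 21125 in pupal glands, or 1.63%, 0.0894% and 2.11% of each library. In order of level among protein-coding genes, the median member stood at place 982 in L6, 7635 in prepupal and 946 in pupal glands. Since these are bulk glands, fewer cells of a type and less RNA per cell cannot be told apart.

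The other 1678 genes with R of 20 or more in L6 and pupa had medians of 70.8, 64.0 and 70.2 in L6, prepupa and pupa, so they started from a like level and showed no such dip at the median. On the log2(R + 1) scale the median member was 4.07 higher in L6 than in the prepupa and 4.19 higher in the pupa than in the prepupa. The medians over all 1759 genes at that level were 0.30 and 0.46. The 81 members were 4.6% of these 1759 genes and 0.431% of all protein-coding genes, which is only how many the rule selects. L6 alone was at least 5 times the prepupa in 520 of 2681 genes (19.4%), the pupa alone in 679 of 2603 (26.1%), and both in 163 of 1759 (9.27%).

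**Figure D1:**
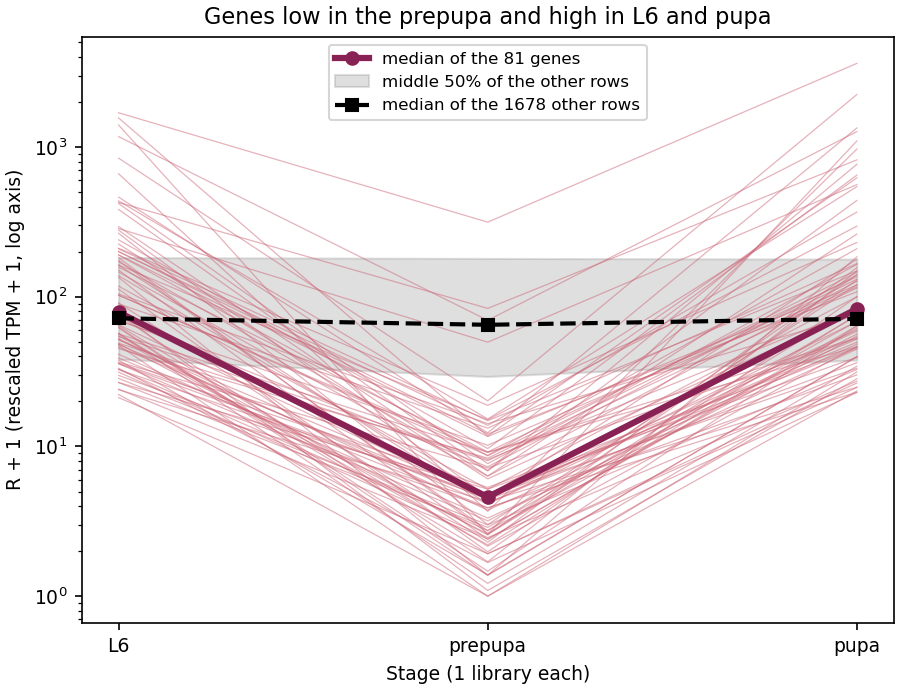
R + 1 (log axis) of each of the 81 genes in L6, prepupa and pupa (thin lines, 1 library per stage), with their median (thick line), and the median and middle 50% of the 1678 other genes with R of 20 or more in L6 and pupa. The median of the 81 genes lies at 77.7, 3.59 and 81.9 before 1 is added, while the other genes stay near 64.0 to 70.8.

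**Figure D2:**
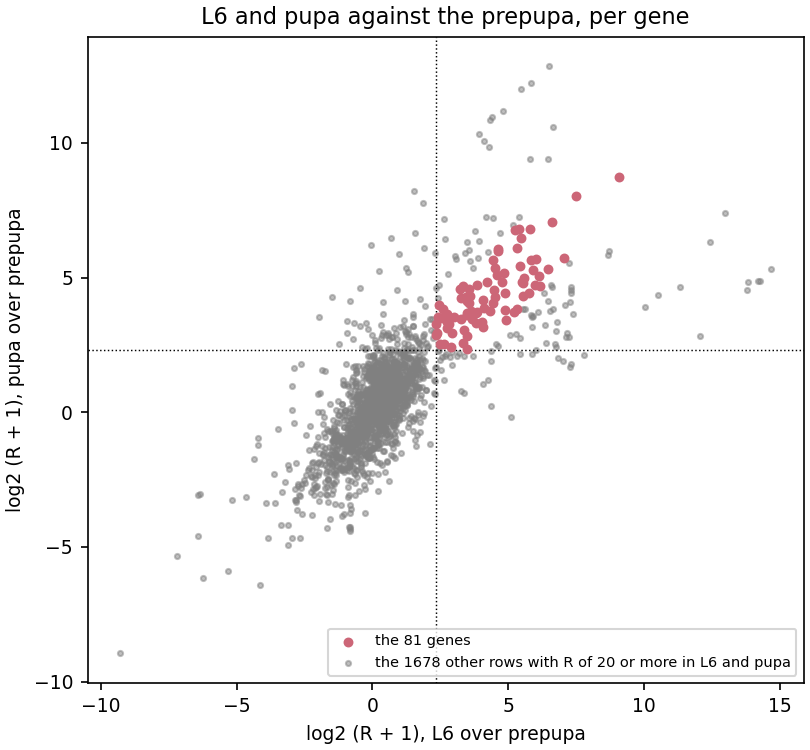
Difference in log2(R + 1) of L6 over prepupa (x axis) and of pupa over prepupa (y axis) for the 81 genes and for the 1678 other genes with R of 20 or more in L6 and pupa, with dotted lines at 5-fold. The 81 genes lie in the upper right by construction, and grey points beside them in that corner are genes whose L6 and pupal levels differ by more than 3-fold; both axes share the prepupal library.

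Summed over their genes, the marker lists of fat body and epidermis were also lowest in the prepupa. The 5 fat body genes summed to R of 3184 in L6, 114 in prepupal and 10727 in pupal glands, of which apolipophorin-3 (LOC118274630), a lipid carrier of hemolymph, made up 3028, 83.5 and 10387. Vitellogenin-like LOC118280767 and the microvitellogenin-like genes were at or near 0 in the pupa. Of the 5 genes, 3 were lower in the prepupa than in both other stages. Storage proteins that the list did not hold were higher in the prepupa than in L6. These were basic juvenile hormone-suppressible protein 2 (LOC118272014, 67.4, 158 and 917) and protein 1-like (LOC118276436, 33.0, 53.9 and 548). The 26 genes of the epidermis list, 25 cuticle proteins and tyrosine 3-monooxygenase-like LOC118263443, summed to 10572, 785 and 17157 in L6, prepupa and pupa, with 19 of 26 lower in the prepupa than in both others, 5, 6 and 2 of them at 0, and a median gene at 9.65, 0.423 and 24.8. The highest stage was L6 in 8 of the 26, the prepupa in 5 and the pupa in 12, and 4 had R of 20 or more in both L6 and pupa. The L6 and pupal sums thus came largely from different genes. Examples are cuticle protein CP14.6-like LOC118269457 (5508, 0 and 79.6) and larval/pupal rigid cuticle protein 66-like LOC118273654 (65.2, 0.154 and 5584). The gland is itself of dermal origin and the study describes cuticular protein genes as expressed in it, so this list does not separate epidermis from gland.

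The summed R of the 12 muscle genes was high in L6 alone, at 11982, 351 and 491, and that of the 6 hemocyte genes likewise, at 512, 104 and 59.9. Gene by gene, 8 of the 12 muscle genes were lower in the prepupa than in both other stages and 3 were highest there. Of the 6 hemocyte genes, 3 were lower there than in both others and 2 were highest there. The sum of the midgut list of 15 genes was highest in the prepupa instead, at 116, 581 and 52.7. So was that of the 3 xanthine dehydrogenases of Malpighian tubules, at 0.590, 690 and 0.631. The only silk gland gene, fibroin light chain-like, had no read in L6 or the prepupa and R of 12.1 in the pupa. None of the 81 is in any of these lists, the lists hold no marker of Verson's gland itself, and the part of other tissues in the pattern was not tested.

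**Figure D3:**
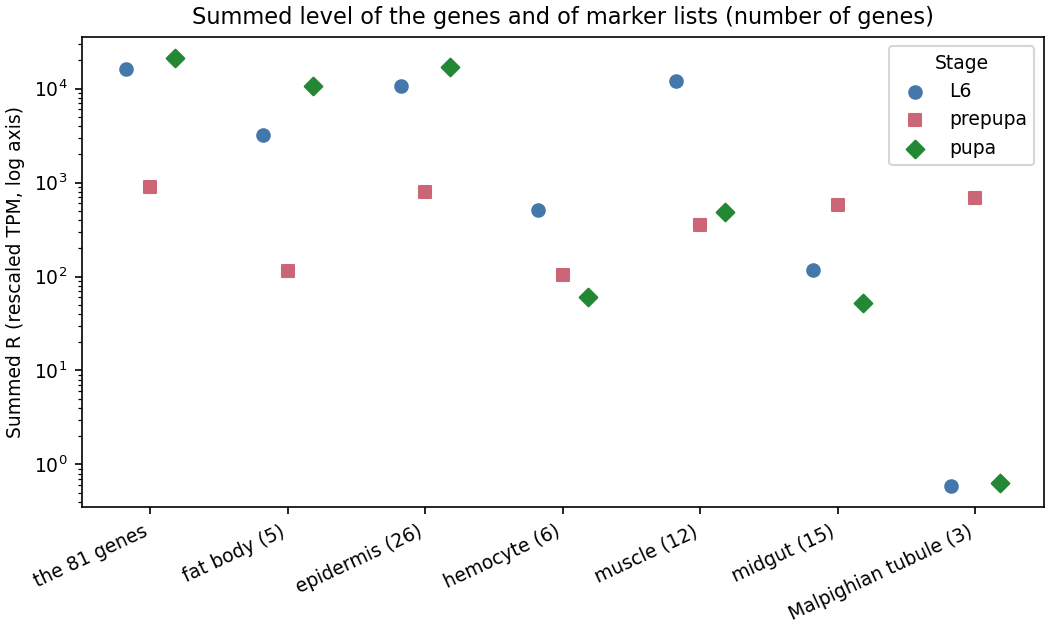
Summed R (log axis) in L6, prepupa and pupa for the 81 genes and for the genes that mark fat body, epidermis, hemocyte, muscle, midgut and Malpighian tubule, with the number of genes in brackets and 1 library per stage. The sums of fat body (3184, 114 and 10727), of epidermis (10572, 785 and 17157) and of the 81 genes (16329, 894 and 21125) are lowest in the prepupa. The epidermis sums in L6 and pupa come largely from different genes. Muscle and hemocyte sums do not regain their L6 level, and midgut and Malpighian tubule sums peak in the prepupa.

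Protein names were found for 32 of the 81 genes (39.5%, against 38.9% of the other genes at that level). Of these, 12 are called uncharacterized and 20 carry a name that points to a function. Among the other 1678 genes, 52 are called uncharacterized and 601 carry such a name, so the set held relatively more of the first and fewer of the second. Names came mostly from lists of genes that the authors had selected as different between the gland and other tissues, so a count of named genes is not an even sample. The names are given by similarity, and a role below is that of the protein in whichever organism it is known from.

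The proteins of hormone carriage and response and of pigment carriage held the named gene with the highest pupal level. Juvenile hormone-binding protein-like LOC118276399, named for the proteins that carry juvenile hormone through hemolymph, had R of 841 in L6, 19.2 in prepupal and 2239 in pupal glands, from 1827, 174 and 24511 reads. Its R in L6 was 43.9 times that of the prepupa (95% counting interval 37.5 to 51.6), and in the pupa 117 times (101 to 136). It had the most pupal reads of any member.

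Ecdysteroid-regulated 16 kDa protein-like LOC118267732, named after a protein of the tobacco hornworm Manduca sexta that responds to molting hormone, was lower throughout, at R of 88.4, 12.3 and 166 in L6, prepupa and pupa. Its R in L6 was 7.22 times that of the prepupa (5.57 to 9.39), and in the pupa 13.5 times (11.0 to 16.8). Insecticyanin-A-like LOC118275531, a lipocalin named after the blue bile-pigment carrier of hornworm hemolymph, had R of 44.0, 7.35 and 130 and was the member whose L6 and pupal levels stood furthest apart. All 3 genes were higher in the pupa than in L6.

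Their named relatives followed several courses. Of 12 named juvenile hormone and ecdysone genes, 4 had R of 20 or more in L6 and pupa and 2 of those are members, with the highest level in L6, prepupa and pupa in 1, 6 and 5 genes. Basic juvenile hormone-suppressible protein 2 (LOC118272014), a hexamer storage protein in other moths, had R of 67.4, 158 and 917 in L6, prepupa and pupa, and the ecdysone receptor LOC118267067 had 5.17, 58.1 and 14.03. Juvenile hormone esterase-like LOC118275676, of the family that breaks the hormone down, had 0.606, 109 and 0. The list's median difference in log2(R + 1) was -0.95 for L6 over prepupa and -0.38 for pupa over prepupa, against medians of -0.64 and -0.73 over all 2296 named genes.

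Beside insecticyanin-A-like, insecticyanin-B-like LOC118275434 had 43.6, 0.225 and 7.41, with a pupal level below that of L6, and LOC118275437 had 19.3, 9.88 and 29.7. Both lay outside the set. Of the 11 storage and other hemolymph protein genes, none was highest in the prepupa, 3 were at least 5 times lower there than in both other stages at R of 20 or more, and 1 is a member. Of 9 odorant-binding, chemosensory and takeout-like genes, 1 had R of 20 or more in L6 and pupa and none is a member.

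Inhibitors of proteases gave 3 members, among them the gene with the deepest dip of the set. Fungal protease inhibitor-1-like LOC118267111, named after a silkworm inhibitor of fungal proteases, lies on the plus strand of NC_049718.1 at 8196863 to 8200153. It had R of 1401 in L6, 1.58 in prepupal and 1096 in pupal glands, from 1906, 9 and 7518 reads, all of them mapped uniquely. Its R was 885 times that of the prepupa in L6 (465 to 1939) and 693 times in the pupa (365 to 1515).

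Waprin-Thr1-like LOC118277733, a member of a family of small whey acidic proteins first named in snake venom, had R of 382, 5.90 and 765 in L6, prepupa and pupa, from 526, 34 and 5314 reads. Alaserpin-like LOC118282272, a serpin, which traps serine proteases, had 189, 10.7 and 119. All 3 were lowest in the prepupa by the rule, while the summed R of the named family was highest there, mostly through 1 gene. The 16 named inhibitor genes summed to R of 2890 in L6, 41193 in prepupal and 2466 in pupal glands, with chymotrypsin inhibitor Ani s 6-like LOC118275519 alone at 45.3, 28844 and 57.2.

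Among these 16, 6 were highest in L6, 9 in prepupal and 1 in pupal glands, near the 52.3% of all named genes that were highest in the prepupa. Of the 16, 7 had R of 20 or more in L6 and pupa, and 3 of those 7 are members. Serine protease inhibitor 77Ba-like LOC118279277 had 43.9, 1612 and 166, highest in the prepupa. Antichymotrypsin-1-like LOC118265780 had 515, 0.307 and 11.6, with a pupal level above the prepupa and far below L6. Of 34 named peptidase genes, 6 passed that level and 1 is a member, venom serine carboxypeptidase-like LOC118273157, an enzyme that trims the carboxy end of proteins, at 35.1, 4.32 and 45.1.

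Among immune genes, putative defense protein Hdd11 (LOC118273606), named after a bacteria-induced protein of the fall webworm, had R of 198 in L6, 12.8 in prepupal and 367 in pupal glands, with L6 at 15.5 times (12.6 to 19.1) and the pupa at 28.6 times (23.9 to 34.5) the prepupa. C-type mannose receptor 2-like LOC118267044, a sugar-binding lectin, was low, at 32.3, 0.678 and 21.9 from 205, 18 and 701 reads. The list held 14 named genes, of which 7 passed R of 20 in L6 and pupa and 2 are members, and 4 of the 7 were at least 5 times lower in the prepupa than in both other stages. The other such genes, lysozyme-like LOC118265509 (432, 39.6 and 2468) and gloverin-like LOC118279253 (124, 6.26 and 7786), were far above L6 in the pupa, which kept them out of the set.

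The immune list as a whole summed to 1387, 512 and 28579 in L6, prepupa and pupa, with 2, 4 and 8 genes highest in each, and its medians of the log2(R + 1) difference were 2.08 for L6 over prepupa and 3.29 for pupa over prepupa.

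Enzymes of metabolism made up the next group. 5-Hydroxyisourate hydrolase-like LOC118279254, an enzyme of the breakdown of urate, had R of 74.3 in L6, 0.697 in prepupal and 148 in pupal glands, from 102, 4 and 1022 reads, and L6 was 107 times (40.4 to 399) and the pupa 212 times (82.5 to 779) the prepupa. Allantoinase-like LOC118266677, named for a later step of urate breakdown, was highest in the prepupa instead, at 36.1, 192 and 4.52.

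Alanine aminotransferase 1-like LOC118272420, which moves an amino group between alanine and glutamate, had 63.1, 1.16 and 45.6. Ribose-phosphate pyrophosphokinase 2-like LOC118274074, which makes the activated ribose of nucleotide synthesis, had 20.2, 0.923 and 23.8 and was the member closest to the level limit. Of 79 named amino acid, sugar and nucleotide enzymes, 21 passed R of 20 in L6 and pupa and 3 are members. Of the 79, 44 were highest in the prepupa, near the 52.3% of all named genes.

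Aldo-keto reductase AKR2E4-like LOC118274940, of a family that reduces carbonyl groups, had R of 162, 3.12 and 57.9, with L6 at 51.7 times (37.0 to 74.4) and the pupa at 18.5 times (13.3 to 26.5) the prepupa. A gene of the same name, LOC118274962, had 100, 2.05 and 21.0, which left it outside only by the gap between L6 and pupa. Cytochrome b5-related protein-like LOC118268104, a heme protein that hands on electrons, had 60.9, 0.378 and 38.8 from 231, 6 and 743 reads.

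The genes of that same cytochrome name went in opposite directions. LOC118268438 had 4.24, 5166 and 4.21 and LOC118268419 had 2.91, 3888 and 3.64 in L6, prepupa and pupa, so the prepupal maximum of both coincided with the minimum of LOC118268104. Of 32 named oxidoreductase and detoxification enzymes, 13 passed R of 20 in L6 and pupa, 3 are members, and 13, 14 and 5 were highest in L6, prepupa and pupa. Peroxisomal (S)-2-hydroxy-acid oxidase GLO3-like LOC118263143, named after an enzyme that oxidizes 2-hydroxy acids, had 27.5, 1.99 and 31.7 and was 1 member among 15 peroxisomal genes, 5 of them at that level.

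Ester hydrolase C11orf54 homolog LOC118267335 had R of 137, 3.62 and 48.7. Lipid genes gave 49 named genes, of which 10 passed R of 20 in L6 and pupa and 1, the lipocalin above, is a member. Membrane transporters gave 38 named genes, 4 at that level and no member, and 29 of the 38 were highest in the prepupa, against 52.3% of all named genes. Over all named genes at that level, 32 of 685 (4.67%) are members, so a list of a few genes without any is no result. Cuticular and chitin genes gave 36, with 8 at that level and no member, although 4 of the 8 were at least 5 times lower in the prepupa than in both other stages.

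The remaining named members were cubilin-like LOC118263154, named for an endocytic receptor of vertebrates, at R of 210 in L6, 17.8 in prepupal and 229 in pupal glands, and anther-specific proline-rich protein APG-like LOC118271675, named after a plant protein, at 162, 14.1 and 295. Poly(U)-specific endoribonuclease homolog LOC118271667, of a family that cleaves RNA at uridines, had 200, 11.1 and 107. Probable salivary secreted peptide LOC118279168 had 89.9, 1.29 and 155, but none of its reads mapped uniquely, so its level depends on how shared reads were assigned. Of all 20 genes named for a function, 8 were higher in L6 than in the pupa and 12 higher in the pupa than in L6.

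**Figure D4:**
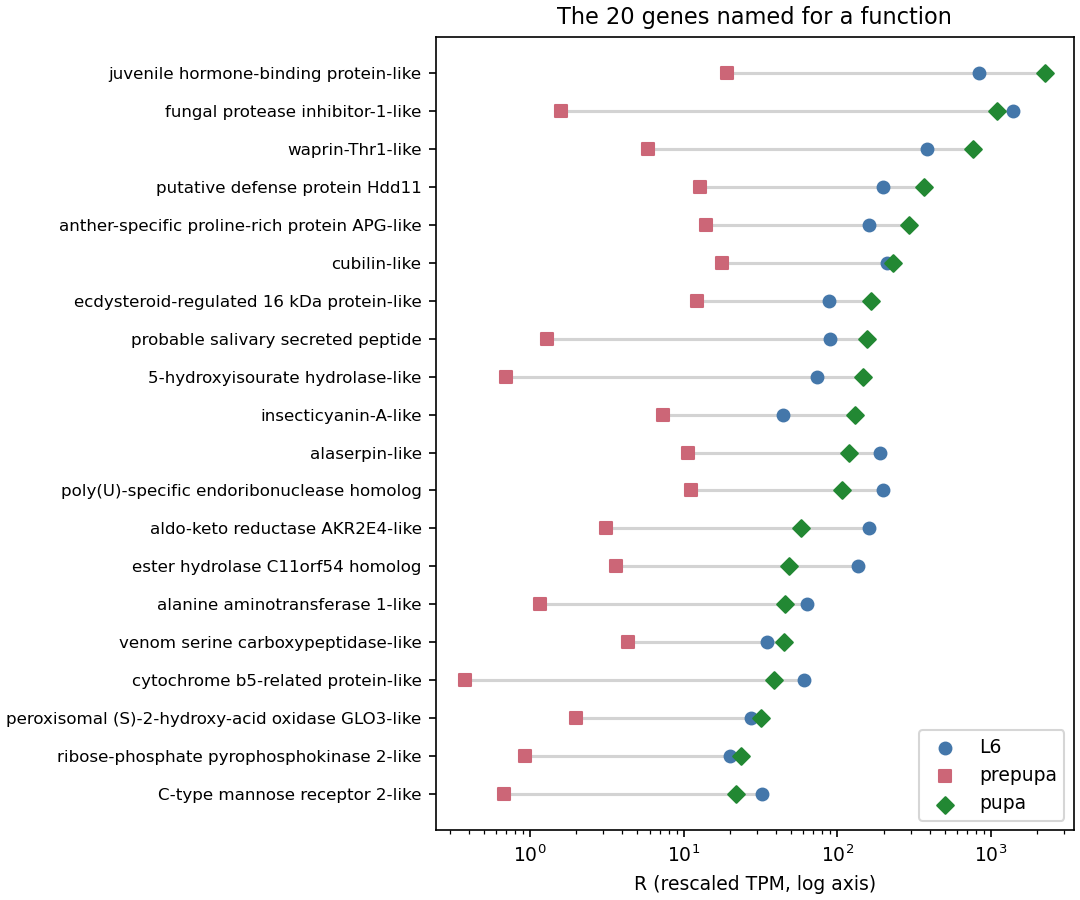
R (log axis) of the 20 genes named for a function in L6, prepupa and pupa (1 library each, no error shown), ordered by their pupal level with a grey line across each gene's range. Every prepupal square lies left of the other symbols, from 0.378 for cytochrome b5-related protein-like to 19.2 for juvenile hormone-binding protein-like, and fungal protease inhibitor-1-like spans the widest range.

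Genes with no functional name made up most of the members and most of the RNA of the set. The 61 uncharacterized or unnamed members, out of 81, took 72.9% of the summed R of the set in L6, 85.4% in prepupal and 71.0% in pupal glands. In L6 and pupa this is near their share by number. In the prepupa, 4 of them at R of 20 or more held 57.5%. Unnamed LOC118279823, on the minus strand of NC_049737.1 at 8044311 to 8045815, was the most abundant member in every stage, at R of 1692 in L6, 314 in prepupal and 3617 in pupal glands from 1726, 1339 and 18602 reads. It was also the one with the most RNA left in the prepupa.

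LOC118276170 followed, at 1171, 68.6 and 1267, of whose reads 46.4% were unique. LOC118266018 had 661, 2.69 and 967 from 1119, 19 and 8254 reads. It had the second deepest dip by the smaller fold of R + 1, which was 179.6. LOC118265961 had 1562, 10.8 and 621, and LOC118263837 had 461, 11.3 and 1339. The 5 members with the highest smaller value of L6 and pupa, LOC118279823, LOC118276170, LOC118267111, LOC118276399 and LOC118266018, held 35.3% of the summed R of the set in L6, 45.4% in prepupal and 43.5% in pupal glands.

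Next by level came LOC118279167 (435, 14.2 and 542), LOC118273430 (425, 82.6 and 819), LOC118265216 (284, 48.7 and 560), LOC118275617 (277, 3.59 and 177) and LOC118268256 (418, 6.67 and 163). Only 0.0236% of the reads of LOC118279167 were unique. LOC118277566 (208, 13.9 and 148) and LOC118276381 (145, 5.35 and 261) close the 20 most abundant together with uncharacterized LOC118277799 (239, 8.69 and 648) and LOC118272019 (170, 5.87 and 439). These levels overlapped those of the named members at each stage.

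The 12 uncharacterized proteins came from 400 genes so named, 64 of them at R of 20 or more in L6 and pupa. Over all named genes at that level, 32 of 685 (4.67%) are members. R of the 12 ran between 34.7 and 425 in L6 (median 160), between 0.0916 and 82.6 in the prepupa (median 5.47) and between 27.3 and 819 in the pupa (median 139). LOC118267327 had the deepest dip among those with unique reads, at 174, 1.73 and 139. The 49 genes without any name had medians of 55.5, 3.50 and 74.1.

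The depth of the dip varied widely among the 81 genes. In the prepupa, 13 had R under 1, 27 under 2, 47 under 5 and 65 under 10, and 4 still had 20 or more. Those were LOC118265216, LOC118276170, LOC118273430 and LOC118279823, and they made up 57.5% of the RNA of the set in the prepupa. Without them the set summed to 12756 in L6, 380 in prepupal and 14863 in pupal glands. R + 1 in both L6 and pupa was at least 10 times the prepupa's in 56 genes, at least 20 times in 31, at least 50 times in 7 and at least 100 times in 2.

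Besides LOC118267111, LOC118266018, LOC118277733 and LOC118267327, the 10 deepest dips by the smaller fold of R + 1 were those of LOC118269843 (97.5-fold), LOC118265961 (52.9-fold), LOC118265223 (50.5-fold), LOC118279254 (44.4-fold), LOC118265960 (42.7-fold) and LOC118276399 (41.8-fold). LOC118265223, unnamed, had R of 111 in L6, 0.978 in prepupal and 98.9 in pupal glands. LOC118265222 (1.38, 0.331 and 1.69) and LOC118265225 (478, 3.46 and 23.0) overlap it on the opposite strand. In 73 of 81, both R ratios to the prepupa were 5-fold or more at the lower end of the 95% counting interval. For the 2 of these with no prepupal read, which have no interval, the ratio against a floor of 3 reads was used. The same reads chose the members, and the limit was on R + 1, which gives smaller ratios than R. This count therefore describes counting error and is no check of the dip.

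No read at all was found in the prepupa for 2 members, both unnamed and both on NC_049719.1. LOC118267822 had R of 46.3 in L6 and 30.4 in the pupa from 109 and 361 reads, which against a floor of 3 reads in the prepupal library is at least 152-fold higher in L6 and at least 99.8-fold higher in the pupa. LOC118267797 had 21.2 and 22.5 from 54 and 288 reads, at least 75.2-fold and at least 79.6-fold higher. A count of 0 in this library allows up to 3 reads, so absence was not shown.

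For another 4 members, 1 to 3 prepupal reads made the ratio imprecise. LOC118263025 had 184, 3 and 553 reads in L6, prepupa and pupa, and its R in L6 was 256 times (86.4 to 1255) and in the pupa 153 times (52.0 to 743) that of the prepupa. LOC118263426 had 68, 3 and 360 reads and ratios of 94.7 (31.1 to 471) and 99.5 (33.8 to 485). LOC118269843 had 168, 2 and 1163 reads and ratios of 351 (95.7 to 2923) and 482 (133 to 3986). LOC118270047 had 203, 1 and 360 reads and ratios of 848 (151 to 33676) and 298 (53.2 to 11822). Neither of the last pair had a unique read in any stage.

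The L6 and pupal levels of the members were close by the rule, and the split within that limit was nearly even. R was higher in L6 for 35 members and higher in the pupa for 46, R + 1 was within 2-fold for 57 and within 1.5-fold for 35, and the median difference in log2(R + 1) of L6 over pupa was -0.11, against -0.02 over all 1759 genes at that level. Another 82 genes at that level were at least 5 times lower in the prepupa than in both other stages but more than 3-fold apart in L6 and pupa, 34 with the pupa higher and 48 with L6 higher. Apolipophorin-3 and gloverin-like are among the first, and the muscle genes myosin regulatory light chain 2 (LOC118270279, 5230, 36.1 and 258) and troponin C-like (LOC118272276, 965, 5.75 and 50.3) are among the second.

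The median exon length of the members was 904 bases, against 1151 in the other 1678 genes, and 45 of 81 (55.6%) were under 1000 bases, against 39.6%. Their genes as a whole were longer at the median, 3291 against 2586 bases, with 4 exons at the median in both. Genes of 1 exon made up 9.88% of the set and 10.3% of the others. R divides reads by exon length, so length entered the rule, and shorter transcripts rest on fewer reads at a given R.

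Uncertain reads were about as common in the set as outside it: fewer than 50% of reads were unique in 9 members (11.1%), against 10.3% of the other genes. At least 99% were unique in 52 members. Of the 9, 7 lie wholly within another gene, 3 of them with no unique read at all. Whether the counting used strand is not stated, so reads of overlapping genes cannot be told apart. In all, 18 members overlapped another gene (22.2%, against 21.7% of the other 1678 genes), 13 of them on the opposite strand (16.0% against 18.1%), and 7 lay within one (8.64% against 4.65%).

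In L6 and pupa, the nested members had far higher R than hosts outside the set, while in the prepupa LOC118269843, LOC118270047 and LOC118272349 were below theirs. LOC118279167 and LOC118279168 lie 151 bases apart within LOC118279163, which had R of 0, 0.129 and 0 in L6, prepupa and pupa. LOC118269843 lies within LOC118269840 (1.46, 2.02 and 0.321) and LOC118277194 (117, 4.18 and 99.04) within LOC118277175 (3.13, 0 and 0.798), both on the opposite strand. LOC118270047 (77.7, 0.0916 and 27.3) lies within the kinase gene LOC118270045 (tyrosine-protein kinase Fer-like, 0.642, 10.7 and 0.408) and LOC118272349 (30.4, 1.46 and 26.3) within LOC118272348 (0.0938, 2.33 and 0.856), again on the opposite strand. No host outside the set had R over 10.7.

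LOC118265961 lies on the same strand within LOC118265960, and both are members. The inner gene had R of 1562, 10.8 and 621 in L6, prepupa and pupa and the outer gene 61.7, 0.469 and 62.8, from 189, 6 and 970 reads. With 44.3% of the reads of LOC118265961 unique, they cannot be counted as separate evidence.

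Members lay on 25 sequences, at most 7 on any one, with 39 on the plus and 42 on the minus strand. In 4 pairs, members had at most 1 gene between them. Besides both nested or adjacent pairs above, the endoribonuclease homolog LOC118271667 (6384423 to 6389959, minus strand) and APG-like LOC118271675 (6393171 to 6394351, plus strand) lay 3211 bases apart on NC_049711.1, with no gene between.

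The last pair was LOC118268247 (47.3, 1.60 and 74.1) and LOC118268256 (418, 6.67 and 163) on NC_049720.1. The single gene between them, LOC118268248, had R of 44.8 in L6, 1.08 in prepupal and 18.9 in pupal glands and so missed the level limit in the pupa.

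Reads in introns, which can come from unspliced RNA, DNA or another transcript, were not part of the rule. Over the set they were 979 in L6, 597 in prepupal and 3453 in pupal glands, or 375, 39.4 and 295 per 1000000 exon reads outside rRNA and mitochondria. Exon reads of the set on the same scale were 12252, 485 and 17067. Intron reads were thus also lowest in the prepupa, by a smaller factor, and their share of the reads of these genes was 2.97%, 7.50% and 1.70%. The other 1678 genes had 14559, 9613 and 16061 intron reads per 1000000, and shares of 2.12%, 2.23% and 2.14%.

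Of the 73 members with introns, 53 had 10 or more intron reads, and in 46 of these (86.8%) the prepupa was lower than both other stages on that scale, against 628 of 1166 (53.9%) of the other genes. No intron read was left in the prepupa in 9 of them. APG-like LOC118271675 was the only one highest in the prepupa, at 0.383, 3.50 and 3.24 intron reads per 1000000, and without it the set had 375, 35.9 and 291. In the prepupa, 265 of the 597 intron reads lay in LOC118271813 and LOC118265698. Without these genes, a choice made after seeing the data, the set had 351, 21.9 and 290 intron reads on that scale, and shares of 2.86%, 4.36% and 1.69%. Intron and exon reads come from the same libraries and are not independent measurements of the stage.

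**Figure D5:**
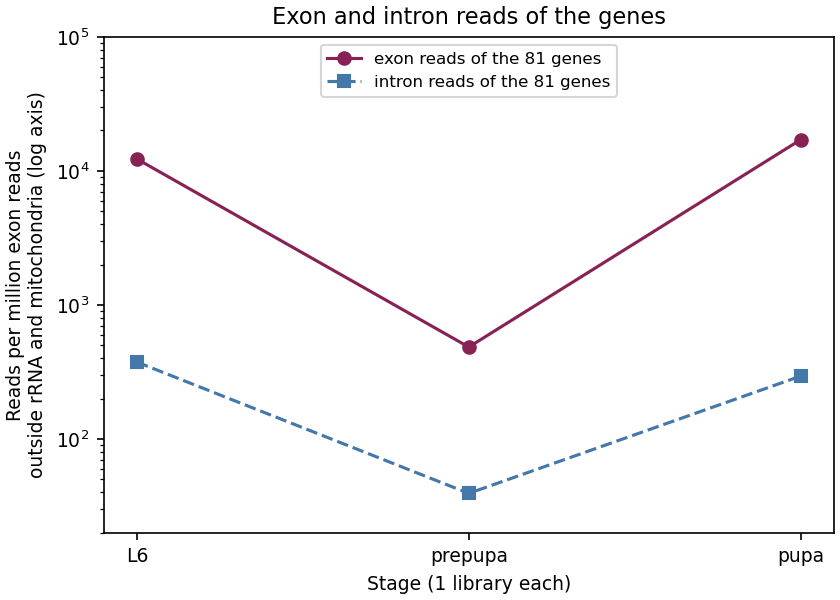
Exon reads (circles) and intron reads (squares) of the 81 genes per 1000000 exon reads outside rRNA and mitochondria (log axis) in L6, prepupa and pupa, 1 library each. Exon reads lie at 12252, 485 and 17067 and intron reads at 375, 39.4 and 295, both lowest in the prepupa.

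The limits of the rule fell among genes of like behaviour. By level, LOC118274074 was just inside, at R of 20.2 in its lower stage, and LOC118276234 (19.5), lipid storage droplets surface-binding protein 1-like LOC118269804 (19.4) and G-protein coupled receptor Mth-like LOC118275818 (19.3) were just outside. By the smaller fold of R + 1, uncharacterized LOC118275799 was just inside at 5.09, and LOC118270397 (4.97), LOC118269327 (4.84) and LOC118275410 (4.80) were just outside. By the fold between L6 and pupa, LOC118275531 was just inside at 2.91, and LOC118281178 (3.16), LOC118277569 (3.20) and LOC118264046 (3.23) were just outside.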

How the data were processed

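Total RNA of dissected Verson's glands was sequenced on the BGISEQ-500, 1 library per stage. Mapping against the FAW genome was done by the authors in CLC Genomics Workbench 9.5.9. The deposited tables hold counts of reads on exons and introns, total and unique, and TPM over all listed genes, rRNA included. Genome build, annotation release, library strand and the handling of multi-mapped reads were not given in the sources used here. Positions are as deposited.

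R, the 81 genes, logarithms of R + 1 and all ratios were computed in Python 3.11.15 with pandas 2.3.3. Intervals of read ratios are exact 95% conditional binomial intervals, and ratios against 0 reads use a floor of 3 reads per library. With 1 library per stage no test was made. TMM factors of edgeR 4.0.16 served 1 alternative only. The code of the selection was checked on simulated counts. Protein names came from the study's supplementary tables, some through accessions matched with RefSeq genes of assembly AGI-APGP_CSIRO_Sfru_2.0 (256 exactly, 158 without version, 182 unmatched), whose coordinates were not used. The genes described in the text are the 20 most abundant by the lower of L6 and pupa, the 10 with the deepest dip, up to 3 of each function list, neighbours, and those beside each limit. The ester hydrolase homolog, nested genes, genes with few or no prepupal reads and family members outside the set were picked after their values were seen. The members, function lists and marker lists were chosen with earlier results of these data known. The columns of ratios between samples were not used.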

Additional observations from a re-analysis of the deposited data

Results flagged for a closer look

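Intron reads, which the selection did not use, outnumbered exon reads in the prepupa for 3 of the 81 genes. LOC118271813 had 42 intron reads in L6, 182 in prepupal and 23 in pupal glands, beside 722, 55 and 1563 exon reads. LOC118265698 had 21, 83 and 37 intron reads beside 116, 27 and 540 exon reads, and it overlaps allergen Tha p 1-like LOC118265697 on the same strand. LOC118263426 had 3, 9 and 20 intron reads beside 68, 3 and 360 exon reads, and a long noncoding RNA gene with no read lies across it on the other strand. Whether these reads come from unspliced RNA, DNA or another transcript was not tested.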

How the results depend on the processing

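The number of genes depended on the scaling and limits. It was 35 on the deposited TPM, 16 of them among the 81, and 135 on CPM, which ignores transcript length, with 74 of the 81. A minimum R of 10 gave 122, of 50 gave 47 and none gave 151, and a ratio of 3 gave 134. Other alternatives stayed within 1.5 times, among them 86 with unique reads (72 shared) and 92 with TMM (65 shared). Chosen after seeing the data, 72 genes had 50% or more unique reads. The median log2 difference of the 81 was 4.07 for L6 and 4.19 for pupa over prepupa, with a direction fixed by the choice of genes. For L6 over prepupa it was 2.22 on deposited TPM, 4.44 on CPM, 3.84 with unique reads, 3.93 with TMM, 4.29 with a pseudocount of 0.1, 3.19 with 5, and 3.94 in genes with mostly unique reads. For pupa over prepupa it was 3.90, 4.68, 3.999, 4.49, 4.53, 3.30 and 4.06 in the same order. The median of all 1759 genes moved too: for L6 and pupa over prepupa it was 0.30 and 0.46 on R, -1.49 and 0.18 on deposited TPM, 0.76 and 1.08 on CPM, 0.25 and 0.42 with unique reads, and 0.15 and 0.76 with TMM. Deposited TPM lowers L6 because rRNA and mitochondrial genes took 72.5% of it there. No paired analysis was possible because each stage has 1 library, and no library could be left out. In L6, 2610753 reads outside those genes limit the precision of low members.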

Other observations

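Among 1708 noncoding genes, 60 had R of 20 or more in L6 and pupa, and 16 of these passed the same limits as the 81 genes. Among protein-coding genes at that level, 81 of 1759 (4.6%) passed. They were 14 long noncoding RNAs, 1 snoRNA and 1 snRNA. LOC118276737 was the most abundant in L6, at R of 1209 in L6, 25.1 in prepupal and 1069 in pupal glands. LOC118270051 had 516, 13.9 and 1407, LOC118271635 had 694, 6.10 and 387, and LOC118276980 had 531, 10.5 and 306. The snRNA, the snoRNA and LOC118280086 had no prepupal read, against 28, 23 and 81 reads in L6. The rRNA and mitochondrial share of TPM was 72.5% in L6 and 0.289% in the prepupa. For these noncoding RNAs, as for the 81 genes, stage and the make-up of the libraries cannot be told apart.

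LOC118276737, LOC118276801 (65.4, 1.004 and 24.1), LOC118276980 and LOC118276692 (146, 3.22 and 62.4) all lie on NC_049732.1, where none of the 81 genes lies. LOC118276801 and LOC118276737 lie close together there, at 13535859 to 13538049 and 13541667 to 13542957. LOC118277498 (104, 2.94 and 124), at 12484234 to 12486222 on NC_049733.1, follows waprin-Thr1-like LOC118277733, which ends at 12483684 and had 382, 5.90 and 765 in the same stages.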
